A study of Homo sapiens with 8 samples.

Results

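Described here are 10 genes known as targets of the signals that tell a liver cell about its fuel: IGFBP1, PCK1, G6PC1, FBP1, IRS2, TXNIP, ARRDC4, TSC22D3, KLF9 and FKBP5. They were chosen by gene symbol, with the knockdown differences of these arrays already known, from the 19775 genes that an Affymetrix array measured in hepatoma cells after knockdown of KLHL23, a Kelch-like protein. Every probe set that the platform annotation pairs with one of these symbols alone was used, 23 of 41097 such probe sets. Their differences below are therefore descriptions, and an adjusted p shows only where a gene stands among all genes tested.

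The series holds 8 arrays in 4 groups of 2, numbered replicates 1 and 3. Hep-3B and Huh7, established lines grown from human liver cancers, were cultured in DMEM with fetal bovine serum and transduced with lentivirus. The virus carried a short hairpin RNA against luciferase (shLuc, the control) or against KLHL23 (shKLHL23, the knockdown), and puromycin selection gave stable populations. All groups therefore share transduction, selection and medium. The knockdown hairpin has a single name in the labels, so loss of KLHL23 and effects of that hairpin on other transcripts cannot be told apart. Whether the replicates are separate cultures is not given in the labels, so the p-values reflect only how these arrays scatter, which may be technical. In these bulk samples, fewer cells expressing a gene and less of its RNA per cell cannot be told apart.

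Values are log2 expression values on the RMA scale, where 1 unit is a 2-fold difference, and a difference is knockdown minus control. A gene was represented by its probe set of highest mean, and it was called changed at a limma adjusted p under 0.05 over all 19775 genes. KLHL23 itself stood at 65.5% and 31.4% of the control mean in Hep-3B knockdown replicates 1 and 3, and at 23.4% and 25.0% in those of Huh7. It was called lower in Huh7 (-2.05, SE 0.27, limma adjusted p = 0.00363) but not in Hep-3B (-1.14, SE 0.27, limma adjusted p = 0.0833). A line's response and the depth of its knockdown therefore cannot be told apart where the lines are compared. Hepatocyte markers were high in every group, with array means over 9 measured markers between 11.92 and 12.57. TTR, a thyroxine carrier, rose in both lines (1.58 in Hep-3B and 1.23 in Huh7). The other 8 were not called in Hep-3B or Huh7, where 0.693% and 13.5% of all genes were, and they went both ways. For example, FGB was at -0.67 in Hep-3B and 0.80 in Huh7, and AFP at 0.29 and -0.48. The 11 measured markers of other liver cells were uneven in level. PTPRC, the pan-leukocyte marker, lay between 2.33 and 2.63, and the macrophage marker CD14 between 4.31 and 6.75. ACTA2, a stellate cell marker, lay between 9.06 and 9.36 in Hep-3B and between 4.68 and 5.15 in Huh7. The other stellate cell and fibroblast markers showed no such gap between the lines. Over all arrays DES lay between 4.44 and 4.96, COL3A1 between 2.82 and 3.42 and COL1A1 between 6.59 and 6.91. The endothelial marker PECAM1 lay between 6.87 and 7.18 in Hep-3B and between 5.25 and 5.97 in Huh7. The biliary marker KRT19 lay between 12.01 and 12.34 in Hep-3B and between 8.02 and 9.67 in Huh7. In Huh7 KRT19 rose (1.32) and SOX9, also biliary, fell (-0.56). Array means over those 11 were 6.44 to 6.48 in Hep-3B, and in Huh7 they were 5.82 to 5.86 in control and 5.86 to 5.98 in knockdown arrays; their part in the results was not tested.

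A fasted liver makes glucose. Glucagon and glucocorticoids switch on the enzymes of gluconeogenesis, and insulin, acting through the kinase AKT, shuts FOXO transcription factors out of the nucleus and so lowers the transcripts they drive, among them IGFBP1, IRS2, PCK1 and G6PC1. Glucose itself is read by the transcription factors MondoA (MLXIP) and ChREBP (MLXIPL), which bind carbohydrate response elements together with MLX and drive TXNIP and ARRDC4. TSC22D3, KLF9 and FKBP5 are classical targets of the glucocorticoid receptor.

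Of the 10 genes, 6 had both knockdown arrays below both control arrays in both lines: IGFBP1, TXNIP, ARRDC4, TSC22D3, KLF9 and FKBP5. The same pattern was found in 11.7% of all genes. In Huh7, where 13.5% of all genes were called, 5 of the 10 were, with PCK1 higher (against 5.75% of all genes called higher) and TXNIP, ARRDC4, TSC22D3 and FKBP5 lower (against 7.73% called lower). In Hep-3B 0 of the 10 were called by limma, where 0.693% of all genes were, and 7 had an unadjusted limma p under 0.05, as did 17.7% of all genes. The median difference of the 10 genes was -0.58 in Hep-3B and -0.56 in Huh7, beside 0.02 and -0.0003 over all genes. Because the genes were picked with these differences known, nothing is read from those counts.

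**Figure D1:**
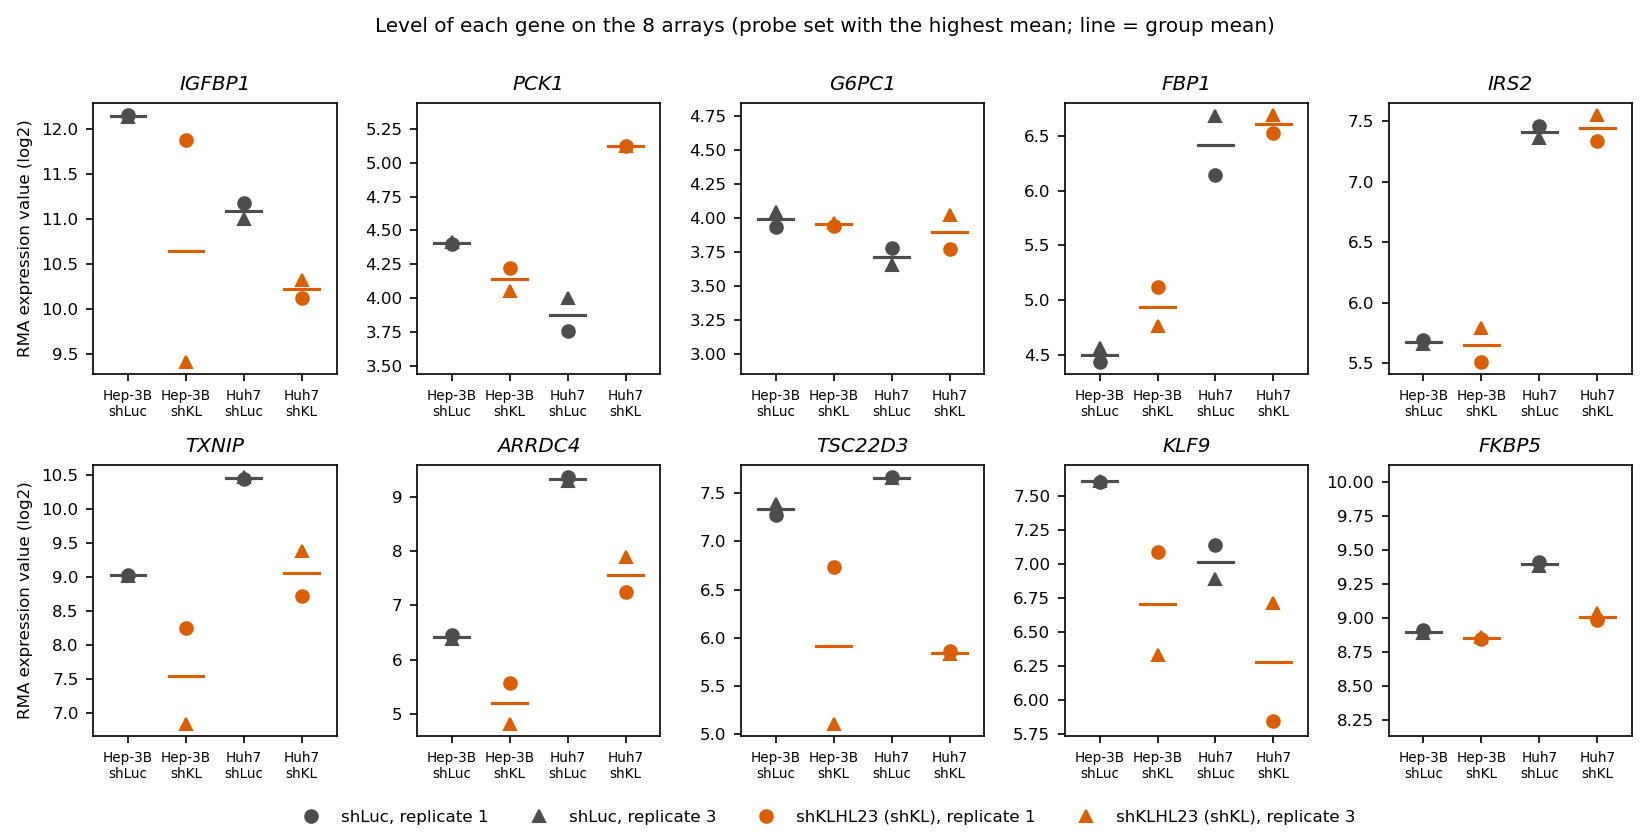
RMA expression value (log2, vertical axes that differ between panels and span at least 2 units) of each of the 10 genes on each array, with shLuc arrays in grey, shKLHL23 arrays in orange, replicate 1 as circles, replicate 3 as triangles and group means as lines. TXNIP, ARRDC4 and TSC22D3 lie lower in all 4 knockdown arrays than in the controls of their line, PCK1 is highest in the Huh7 knockdown arrays, and the 2 Hep-3B knockdown arrays of IGFBP1 lie far apart.

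Calls in Huh7 rest on few arrays. The number called over all genes also fell in each of the fits named next, so such losses are not particular to the 10 genes. Without control replicate 1, control replicate 3 or knockdown replicate 1 of Huh7, 2 of the 10 genes were called each time, PCK1 and ARRDC4. In Hep-3B, 4 genes were called without knockdown replicate 1 (IGFBP1, TXNIP, ARRDC4 and TSC22D3), a fit in which a lone array stands for the group and is assumed to vary like the others. With array weights 2 were called, TXNIP and ARRDC4.

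TXNIP encodes an alpha-arrestin that binds thioredoxin and lowers glucose uptake by promoting removal of glucose transporters from the cell surface, and ARRDC4 is the alpha-arrestin most like it. Their promoters are printed because the genes are the glucose-sensing targets among the 10, and each promoter holds a match to a motif of those factors, an E-box or a pair of E-box-like elements. Both stretches are the 250 bases before the transcription start in RefSeq annotation of GRCh38.p14, read along the gene's strand, with matches to the motifs searched in capitals. In TXNIP the capitals mark GTAAACA, the core of a FOXO site, and a carbohydrate response element made of CACGNG, any 5 bases and CACGNG again. In ARRDC4 they mark CACGTG, a single E-box.
TXNIP, chr1:145996580-145996829, minus strand: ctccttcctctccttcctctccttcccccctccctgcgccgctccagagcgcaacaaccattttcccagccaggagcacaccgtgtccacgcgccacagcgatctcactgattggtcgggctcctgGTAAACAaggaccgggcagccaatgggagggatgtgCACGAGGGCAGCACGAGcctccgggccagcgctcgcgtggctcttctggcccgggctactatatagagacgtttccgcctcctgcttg
ARRDC4, chr15:97960453-97960702, plus strand: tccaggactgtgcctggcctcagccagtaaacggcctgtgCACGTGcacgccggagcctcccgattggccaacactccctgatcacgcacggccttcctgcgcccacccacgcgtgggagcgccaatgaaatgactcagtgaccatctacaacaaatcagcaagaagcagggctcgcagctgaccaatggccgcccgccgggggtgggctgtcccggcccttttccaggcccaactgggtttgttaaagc

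The motifs were searched on both strands in windows of 300 bases (250 before and 50 after the start). The promoter set used held windows for 8 of the 10 genes, all but IGFBP1 and PCK1. For each of the 8 genes 1 window was searched, and any other start of the gene was left out. GTAAACA was found in TXNIP alone of the 8, at bases -124 to -118 from the start, and in 3.42% of all 35116 promoters. The carbohydrate response element, a search added after the TXNIP promoter had been seen, matched TXNIP alone of the 8 at -88 to -72 and 0.057% of all promoters. CACGTG was found in ARRDC4, at -210 to -205, and in 7.26% of all promoters. CAAAACA, the core of an insulin response sequence, was found in IRS2 and FKBP5 and in 4.92% of all. The glucocorticoid response element, AGAACA and TGTTCT with any 3 bases between them, was found in none of the 8 and in 1 promoter in all. A motif that rare was all but certain to be absent from 8 windows, so nothing is read from its absence. No match overlapped another, and a match is a description of letters, not a bound site.

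TXNIP was lower in both knockdown arrays of each line. In Hep-3B its control arrays stood at 9.02 and 9.02 and its knockdown arrays at 8.25 and 6.84 in replicates 1 and 3. In Huh7 the control arrays were at 10.43 and 10.46 and the knockdown arrays at 8.72 and 9.38. No knockdown array reached a control array of its line, and knockdown replicates lay much further apart than control replicates. That left 58.5% and 22.1% of the control mean in Hep-3B and 30.1% and 47.9% in Huh7. The Hep-3B difference of -1.48 (SE 0.38) missed the threshold (limma adjusted p = 0.100), and TXNIP fell by 1.40 in Huh7 (SE 0.38, n = 2 per group, limma adjusted p = 0.0461). That call is close to the threshold and was lost under 11 of 17 alternative settings, for example with array medians subtracted (limma adjusted p = 0.0514; between 0.0072 and 0.224 over the alternatives).

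All 3 probe sets of TXNIP showed the same direction in both lines. The dimmest of them gave -2.0 in Hep-3B and -1.28 in Huh7, and the middle one -1.40 and -1.24. The Hep-3B knockdown value of TXNIP also depended on replicate 3: without it the difference was -0.77, and without replicate 1 it was -2.18. In level, Huh7 controls were highest, Huh7 knockdown and Hep-3B control arrays overlapped, and Hep-3B knockdown arrays were lowest.

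ARRDC4 followed the same course, with no overlap between any of the 4 groups. Its values were 6.46 and 6.38 in Hep-3B control arrays and 5.58 and 4.82 in knockdown arrays. Huh7 stood higher throughout, at 9.36 and 9.30 with shLuc and 7.24 and 7.89 with shKLHL23. ARRDC4 fell by 1.76 in Huh7 (SE 0.26, n = 2 per group, limma adjusted p = 0.00496), and this call held under all 17 alternatives, with differences from -2.09 to -1.43. The Huh7 knockdown arrays kept 23.5% and 37.0% of the control level. In Hep-3B the difference was -1.22 (SE 0.26, limma adjusted p = 0.0717; between 0.0151 and 0.369 over the alternatives). The test of a difference between the lines gave -0.54 for ARRDC4 (SE 0.36, limma adjusted p = 0.545) and 0.08 for TXNIP (SE 0.54, limma adjusted p = 0.965).

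No transcript of the factors that drive these genes was called. MLXIP, MLXIPL and MLX, the MondoA, ChREBP and partner subunits, had differences of 0.04, 0.12 and -0.11 in Hep-3B and 0.02, 0.10 and 0.13 in Huh7. In the list of 18 measured MondoA and ChREBP targets, which leaves out TXNIP and ARRDC4, GPD1 (1.66) and PKLR (0.58) rose in Hep-3B and 0 fell. In Huh7 ANGPTL8 (-1.97), KLF10 (-1.70) and ELOVL6 (-0.47) fell and 0 rose. Of all genes 0.536% were called higher and 0.157% lower in Hep-3B, and 5.75% and 7.73% in Huh7. GPD1 makes glycerol phosphate from a glycolytic intermediate, PKLR is liver pyruvate kinase, ANGPTL8 is a feeding-induced secreted protein, and ELOVL6 lengthens fatty acids. The median of this list was 0.26 in Hep-3B and 0.10 in Huh7, beside 0.02 and -0.0003 over all genes. The part of these factors in the differences of TXNIP and ARRDC4 was not tested. Among 12 measured glucose-sensing factors, transporters and kinases of sugars, the hexokinase-like HKDC1 rose in both lines (1.14 in Hep-3B and 0.72 in Huh7), and no other gene was called. HK2, hexokinase of proliferating cells, was at -1.32 and -0.98, short of the threshold (limma adjusted p = 0.112 and 0.116).

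**Figure D2:**
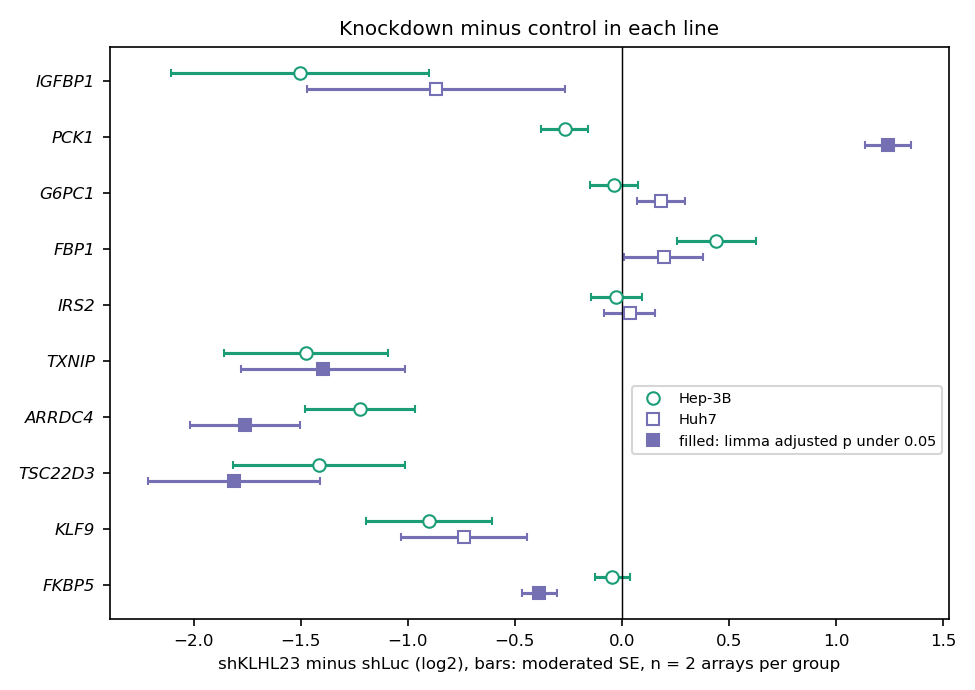
Knockdown minus control (log2, horizontal axis) of the 10 genes in Hep-3B (circles) and Huh7 (squares), with moderated SE as bars and filled symbols where the limma adjusted p was under 0.05. PCK1 lies at -0.27 in Hep-3B and 1.24 in Huh7, and TXNIP, ARRDC4 and TSC22D3 lie below -1 in both lines.

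IGFBP1, a secreted binding protein of insulin-like growth factors and a standard readout of hepatic insulin and FOXO signalling, was lower in every knockdown array, and unevenly so. Hep-3B control arrays stood at 12.16 and 12.14, and the knockdown arrays at 11.88 in replicate 1 and 9.42 in replicate 3. In Huh7 the values were 11.18 and 11.01 with shLuc and 10.12 and 10.33 with shKLHL23. Hep-3B knockdown replicate 3 therefore kept 15.1% of the control level where replicate 1 kept 82.8%, and the Huh7 knockdown arrays kept 51.1% and 58.9%. The difference was -1.50 in Hep-3B and -0.87 in Huh7 (SE 0.60 each, n = 2 per group), and neither passed (limma adjusted p = 0.242 and 0.417).

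The shared SE of IGFBP1 carries the gap between the Hep-3B knockdown arrays into the Huh7 comparison. When Huh7 was fitted alone, IGFBP1 was called at -0.87 there (limma adjusted p = 0.0163, between 0.00512 and 0.647 over the alternatives). In Hep-3B the difference of IGFBP1 was -0.27 without knockdown replicate 3 and -2.73 without knockdown replicate 1. The array with less IGFBP1 was also the Hep-3B knockdown array with less KLHL23 transcript, and TXNIP, ARRDC4, TSC22D3 and KLF9 were lower in it too. In Huh7 KLHL23 was alike in both knockdown arrays, and so were IGFBP1 and TSC22D3 (28.8% and 28.1% of control). TXNIP (30.1% and 47.9%), ARRDC4 (23.5% and 37.0%) and KLF9 (44.4% and 81.0%) were not. With 2 arrays per group the relation was not tested. A second probe set of IGFBP1, below the lower quartile on all 8 arrays, gave 0.05 in Hep-3B and -0.07 in Huh7.

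IRS2, the adaptor that couples the insulin receptor to lipid kinase signalling in liver, did not separate the groups. Its values were 5.69 and 5.66 in Hep-3B control and 5.51 and 5.79 in Hep-3B knockdown arrays. In Huh7 they were 7.46 and 7.36 with shLuc and 7.34 and 7.55 with shKLHL23. Knockdown and control arrays overlapped in both lines, and the differences of -0.03 and 0.04 (SE 0.12 each) were smaller than the gap between replicates. The other probe set of IRS2 gave -0.11 and 0.16.

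PCK1, the cytosolic enzyme that commits oxaloacetate to glucose synthesis, was the only one of the 10 genes called higher. In Huh7 it stood at 3.76 and 4.0 in control arrays and at 5.12 and 5.12 in knockdown arrays, a rise of 1.24 (SE 0.11, n = 2 per group, limma adjusted p = 0.000822) that amounts to 2.37-fold. In Hep-3B it was at 4.4 and 4.41 with shLuc and 4.22 and 4.05 with shKLHL23, a difference of -0.27 (SE 0.11, limma adjusted p = 0.247). The groups did not overlap in either line, and the differences had opposite signs. The difference between the lines was 1.51 (SE 0.15, limma adjusted p = 0.00838), where 1.26% of all genes were called, and PCK1 was the only one of the 10. That call was lost narrowly without Hep-3B control replicate 1 (1.51, limma adjusted p = 0.0513) or Huh7 control replicate 1 (1.39, limma adjusted p = 0.0501). PCK1 has a single probe set here and is dim, below the median of gene means, a range in which RMA shrinks changes.

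G6PC1 and FBP1, which act at later steps of glucose synthesis, were not called in either line. G6PC1, the phosphatase that releases free glucose, stood at 3.94 and 4.05 in Hep-3B control and 3.94 and 3.97 in knockdown arrays. In Huh7 it was at 3.78 and 3.65 with shLuc and 3.77 and 4.03 with shKLHL23, so groups overlapped in both lines and the differences were -0.04 and 0.18 (SE 0.11 each). Its other probe set lay below the lower quartile on all 8 arrays and gave 0.35 in Hep-3B and 0.53 in Huh7 (limma adjusted p = 0.320 and 0.0693 over all probe sets), so the level of G6PC1 is only weakly measured in these cells. FBP1, the bisphosphatase that opposes phosphofructokinase, was at 4.43 and 4.56 in Hep-3B control and 5.12 and 4.76 in knockdown arrays. In Huh7 FBP1 was at 6.15 and 6.68 with shLuc and 6.53 and 6.69 with shKLHL23. Its knockdown arrays lay above control in Hep-3B and overlapped control in Huh7, and neither difference passed (0.44 and 0.19, SE 0.18 each, limma adjusted p = 0.254 and 0.563).

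Around these enzymes, 17 other gluconeogenesis genes were measured. In Huh7 PC, the pyruvate carboxylase that feeds PCK1, rose by 0.92 (SE 0.10, limma adjusted p = 0.00189), and G6PC3, the broadly expressed glucose phosphatase, rose by 0.52. The mitochondrial carboxykinase PCK2 fell by 0.80, the aminotransferase GOT1 by 0.57 and the aspartate-glutamate carrier SLC25A13 by 0.50. Of all genes 5.75% were called higher and 7.73% lower in Huh7. In Hep-3B 0 of the 17 were called by limma, with 6 at an unadjusted p under 0.05 (17.7% of all genes); SLC2A2, the liver glucose transporter, was furthest from 0 at 0.58. PC, at -0.03 in Hep-3B, differed between the lines by 0.95 (limma adjusted p = 0.0284), as PCK1 did, while PCK2 was at -0.48 in Hep-3B and did not differ between lines beyond the threshold (-0.32, limma adjusted p = 0.480). The list's median was 0.09 in Hep-3B and 0.004 in Huh7.

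TSC22D3, known as GILZ, a leucine zipper protein that carries much of the anti-inflammatory action of glucocorticoids, was lower in all knockdown arrays by its brightest probe set. The Huh7 values were 7.66 and 7.65 with shLuc and 5.86 and 5.83 with shKLHL23, 28.8% and 28.1% of control. TSC22D3 fell by 1.81 there (SE 0.40, n = 2 per group, limma adjusted p = 0.0211; between 0.000367 and 0.109 over the alternatives). In Hep-3B it was at 7.28 and 7.39 with shLuc and 6.73 and 5.11 with shKLHL23, a difference of -1.41 (SE 0.40, limma adjusted p = 0.121) that was -0.60 without knockdown replicate 3 and -2.23 without knockdown replicate 1. The knockdown arrays of the lines overlapped, below both control groups.

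Its other probe sets gave smaller values. One that can bind related transcripts gave -0.28 in Hep-3B and -0.52 in Huh7, below control in both lines, and the dimmest gave 0.10 and -0.21. Averaging the 3 probe sets took the TSC22D3 differences to -0.53 and -0.85.

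KLF9, a zinc finger transcription factor induced by glucocorticoid and thyroid hormone, was lower in all knockdown arrays by its brightest probe set, with a wide spread. Its Hep-3B values were 7.60 and 7.62 for shLuc and 7.09 and 6.33 for shKLHL23. In Huh7 KLF9 was at 7.14 and 6.89 with shLuc and 5.85 and 6.71 with shKLHL23. The differences of -0.90 and -0.74 (SE 0.30 each, n = 2 per group) did not pass (limma adjusted p = 0.162 and 0.146). A dimmer probe set of KLF9 gave -0.85 in Hep-3B and passed over all probe sets (SE 0.17, limma adjusted p = 0.0470), the only one of the 23 probe sets to do so in that line, where 1.52% of all probe sets did. In Huh7, where 10.6% of all probe sets were called, 6 of the 23 were, from PCK1, ARRDC4, TSC22D3, FKBP5 and the brighter 2 of TXNIP, and for the line difference, where 1.31% were, 1 was, from PCK1. The other 3 probe sets of KLF9 had differences from -0.11 to 0.25. Of these, 1 had its knockdown arrays above control in both lines (0.18 in Hep-3B and 0.25 in Huh7). The mean of all 5 gave -0.33 and -0.13.

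FKBP5, a co-chaperone that restrains the glucocorticoid receptor, had small differences and close replicates. In Huh7 it was at 9.41 and 9.38 with shLuc and 8.98 and 9.03 with shKLHL23, and it fell by 0.38 (SE 0.08, n = 2 per group, limma adjusted p = 0.0195). That left 75.2% and 77.9% of control. In Hep-3B the values were 8.91 and 8.89 with shLuc and 8.85 and 8.86 with shKLHL23, a difference of -0.04 (SE 0.08, limma adjusted p = 0.848). The difference between lines, -0.34 (SE 0.12), did not pass (limma adjusted p = 0.226). The other probe sets of FKBP5 gave -0.33 and -0.29 in Huh7 and -0.03 and -0.40 in Hep-3B, so in Hep-3B they were less alike. The call was lost when Huh7 was fitted alone (limma adjusted p = 0.0655) and without Huh7 control replicate 1, control replicate 3 or knockdown replicate 1 (0.120, 0.101 and 0.0623), with the difference between -0.40 and -0.36.

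**Figure D3:**
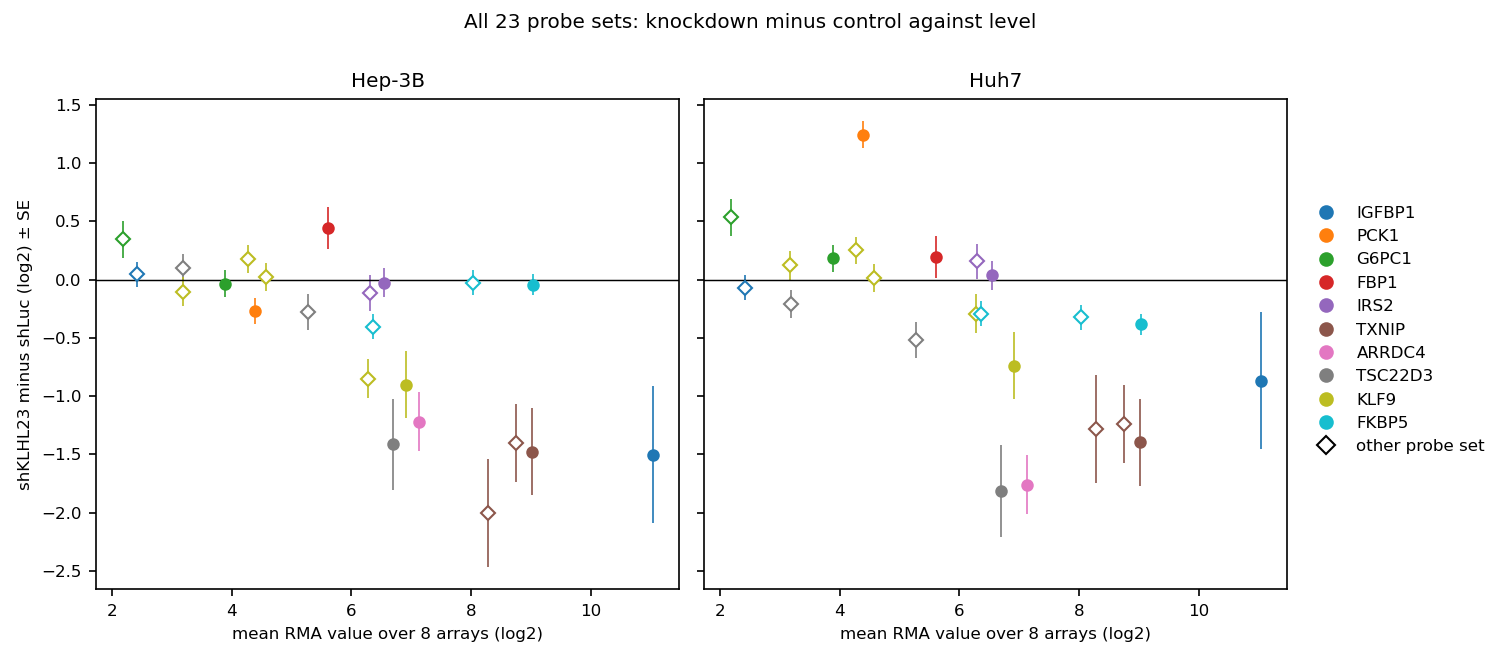
Knockdown minus control (log2, vertical axis) against the mean RMA value over 8 arrays (log2, horizontal axis) for all 23 probe sets, in Hep-3B and Huh7, with moderated SE as bars, colours for genes, circles for the probe set that stands for a gene and open diamonds for the others. The 3 probe sets of TXNIP lie together below -1 in both panels, while the dim probe sets of KLF9, TSC22D3 and IGFBP1 lie near 0 beside bright ones well below 0.

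Of the upstream factors, FOXO1, FOXO3 and the glucocorticoid receptor fell in Huh7. FOXO1 fell by 0.67 and FOXO3 by 0.82 (SE 0.16 and 0.15, limma adjusted p = 0.0277 and 0.0119), and the glucocorticoid receptor NR3C1 fell by 0.61 (SE 0.15, limma adjusted p = 0.0299). Their Hep-3B differences were -0.62, -0.74 and -0.49 (limma adjusted p = 0.101, 0.0696 and 0.135), none of them called. The insulin receptor INSR was at -0.11 in Hep-3B and 0.11 in Huh7, and FOXO4, a further FOXO factor, at 0.19 and 0.44 (limma adjusted p = 0.562 and 0.0827), and none of these passed. FOXO3 stood at 9.64 and 9.65 in Hep-3B control, 9.16 and 8.65 in Hep-3B knockdown, 9.78 and 9.80 in Huh7 control and 8.90 and 9.05 in Huh7 knockdown arrays. Again no knockdown array overlapped the controls, and Hep-3B replicate 3 was the lower.

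Of 27 measured regulators of gluconeogenic transcription, which include those 3 factors, 12 fell and 1 rose in Huh7. Of all genes 7.73% were called lower there and 5.75% higher. Because the list was chosen with earlier results known, nothing is read from these counts. The salt-inducible kinase SIK1 (-1.20), which restrains gluconeogenic transcription, the deacetylase SIRT1 (-1.17) and CEBPB (-1.08) fell most, and PRKACB (0.66), a catalytic subunit of protein kinase A, rose. The median was -0.36, beside -0.0003 over all genes. In Hep-3B 0 of the 27 were called by limma, with 15 at an unadjusted p under 0.05 (17.7% of all genes); CEBPB was furthest from 0 at -1.0 (limma adjusted p = 0.0858), and the median was -0.18.

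The other FOXO targets went both ways. Of 29 measured, 4 fell and 2 rose in Huh7, where 7.73% of all genes were called lower and 5.75% higher. The median was -0.07. The death ligand TNFSF10 (2.41) and the cell cycle inhibitor CDKN1A (1.04) rose, while GADD45A (-1.23), MTTP (-1.05), which loads lipid onto apolipoprotein B, GADD45B (-0.76) and CDKN1B (-0.40) fell. In Hep-3B 0 of the 29 were called by limma, with 18 at an unadjusted p under 0.05 (17.7% of all genes), and the median was -0.11. SESN3 was furthest from 0 there at 1.31 (limma adjusted p = 0.0596).

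Glucocorticoid receptor targets were mixed as well. Of 22 measured, MT1X and MT2A, metallothioneins that also respond to metals, rose in both lines (1.67 and 1.27 in Hep-3B, 1.68 and 1.51 in Huh7). CEBPD fell by 0.65 in Hep-3B, and RHOB fell by 0.64 in Huh7 along with NR3C1, which the list also holds. No other gene of the list was called. Over all genes the called shares were 0.536% higher and 0.157% lower in Hep-3B, and 5.75% and 7.73% in Huh7. The list medians were -0.12 in Hep-3B and -0.09 in Huh7.

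In the insulin and IGF signalling list of 29 measured genes, the regulatory subunit PIK3R3 rose in Hep-3B (1.14), and no other gene was called there. The shares over all genes in Hep-3B were 0.536% higher and 0.157% lower. In Huh7, where 5.75% of all genes were called higher and 7.73% lower, TSC1 (0.52), AKT1 (0.51) and GSK3B (0.41) rose. TRIB3 (-1.51), an inhibitor of AKT, SOCS2 (-0.82), the receptor adaptor GRB10 (-0.73) and the phosphatase PTPN1 (-0.56) fell. The medians were -0.05 and 0.02.

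Of 23 measured paralogs and partners of the 10 genes, 2 were called higher and 4 lower in Huh7, where 5.75% and 7.73% of all genes were. In Hep-3B 0 were called by limma, with 4 at an unadjusted p under 0.05 (17.7% of all genes), and PCK2 lay furthest from 0. In Huh7 IGFBP6 (0.78) rose beside G6PC3, and TXNRD1 (-0.66), the thioredoxin reductase, TSC22D1 (-0.49) and TSC22D2 (-0.49) fell beside PCK2. ARRDC3, an alpha-arrestin like ARRDC4, was at 0.16 and 0.32 and was not called. TXN, the thioredoxin that TXNIP binds, was at 0.14 and 0.25 and was not called either.

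**Figure D4:**
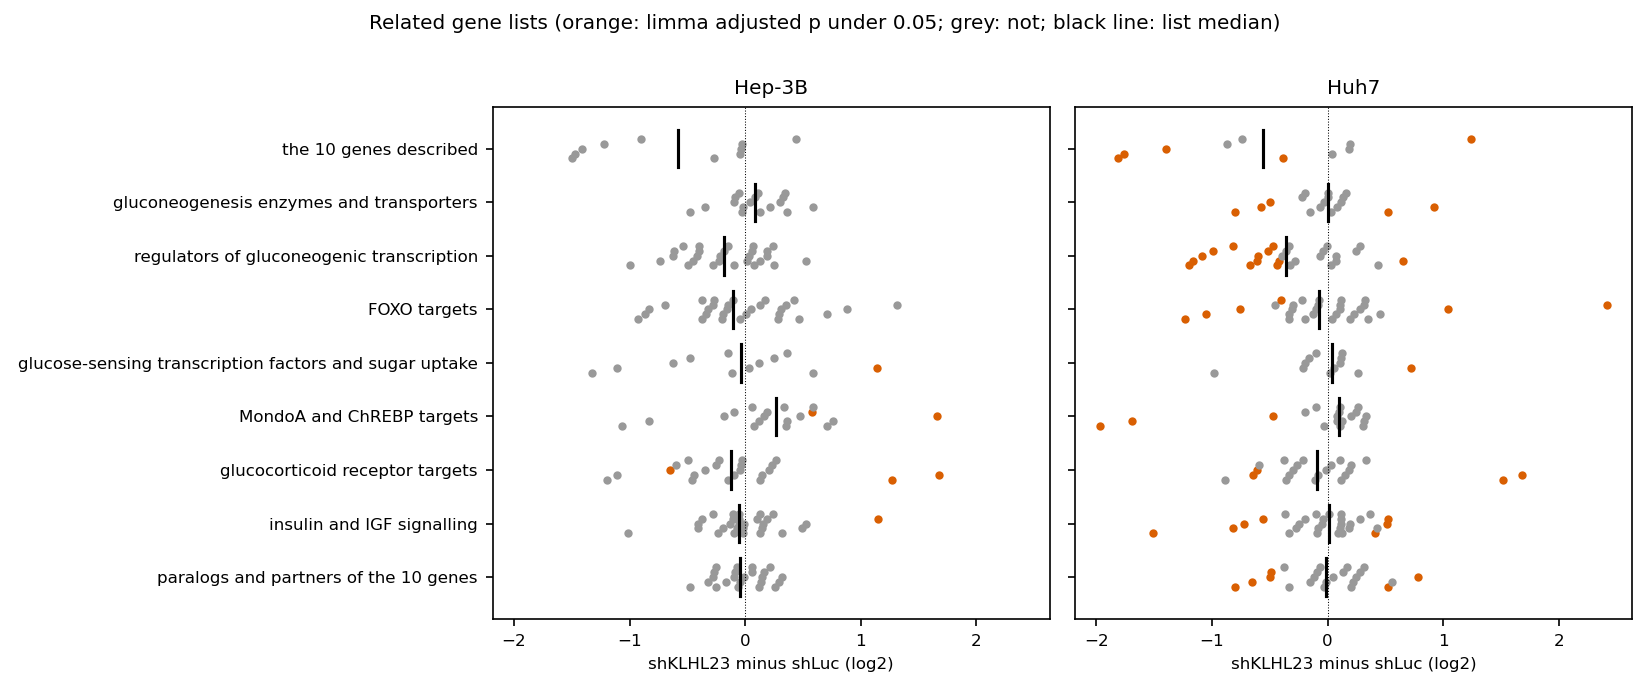
Knockdown minus control (log2, horizontal axis) of every measured gene of each related list in Hep-3B and Huh7, with called genes in orange, others in grey and the list median as a black line. In Huh7 the regulators of gluconeogenic transcription have 12 called genes below 0 and 1 above, beside 7.73% and 5.75% of all genes. The medians of the other related lists lie between -0.12 and 0.26.

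The control lines differed in the resting level of most of these genes. Huh7 controls were higher than Hep-3B controls by 2.91 in ARRDC4, 1.92 in FBP1, 1.73 in IRS2, 1.43 in TXNIP and 0.50 in FKBP5, and lower by 0.53 in PCK1. Those 6 were called by limma, where 32.7% of all genes were (5 higher, where 17.7% of all genes were, and 1 lower, where 14.9% were). The call of TXNIP was lost in 5 of 16 alternatives, with trend and robust eBayes (limma adjusted p = 0.0947) and without any single control array (0.0743 to 0.0859), and the difference stayed between 1.30 and 1.44. IGFBP1 was at -1.05 and KLF9 at -0.59 and neither passed (limma adjusted p = 0.240 and 0.176). In size, the gap between control lines was larger than either knockdown difference for ARRDC4, FBP1, IRS2, FKBP5 and G6PC1, of which G6PC1 was not called between the controls (limma adjusted p = 0.0933). PCK1, by contrast, went in Huh7 from the lowest of the 4 groups to the highest.

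The genes with profiles most like TXNIP, IGFBP1 and PCK1 were found by the root mean square difference over 8 arrays of values centred on each line's mean, among 9880 other genes with a mean above the median. Nearest to TXNIP were VEGFA (0.12), the vascular growth factor, the asparagine synthetase ASNS (0.16), TUBE1 (0.17), ZFP69B (0.17) and MYO10 (0.18). Nearest to IGFBP1 were EGR1 (0.19), CHST15 (0.21), TCIM (0.24), HK2 (0.27) and VEGFA again (0.27). Nearest to PCK1 were L1CAM (0.12), a neural cell adhesion molecule, UNC5CL (0.13), PLPPR1 (0.15), SH3YL1 (0.16) and the pyruvate kinase PKM (0.16). By the same measure TXNIP lay 0.23 from ARRDC4, 0.24 from TSC22D3, 0.35 from IGFBP1 and 0.36 from KLF9, and 1.09 from PCK1. The profiles share arrays and a control level, and nearness in them is a description.

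A measure of RNA integrity from ACTB also separated knockdown from control in both lines, and another from GAPDH did so in Hep-3B alone. The ACTB probe sets at the 3′ end exceeded those at the 5′ end by 0.442 and 0.537 in Hep-3B control and by 0.737 and 0.753 in Hep-3B knockdown arrays. In Huh7 it ran the other way, at 0.873 and 0.833 with shLuc and 0.525 and 0.546 with shKLHL23. The same GAPDH measure was 0.117 and 0.12 in Hep-3B control and 0.223 and 0.236 in Hep-3B knockdown arrays. In Huh7 the groups overlapped in it, at 0.132 and 0.0887 with shLuc and 0.148 and 0.112 with shKLHL23. The part of RNA integrity in the results was not tested.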

How the data were processed

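The deposited values are log2 expression values for which the submitters' processing notes name RMA and the program Affymetrix Expression Console 1.2; RMA gives all arrays the same intensity distribution and shrinks changes of dim probe sets. The table held 54675 probe sets, with array medians of 4.563 to 4.597. The platform annotation paired 41097 with 1 symbol; the highest-mean probe set stood for each of 19775 genes, with no filter. Differences were fitted with limma 3.58.1 in R 4.3.3 (lmFit with 4 group means over 8 arrays, then eBayes, with 4 residual and 4.59 prior degrees of freedom), with Benjamini-Hochberg adjustment across the 19775 genes, and in the same way across the 41097 probe sets. The number of arrays limits the precision. The code was tested on simulated data. The 10 genes and the related lists were chosen with earlier results of these data known. Named from the lists were up to 3 called genes per direction and line, or the one furthest from 0; the called genes CDKN1B, PTPN1 and TSC22D2 and uncalled ARRDC3, TXN, HK2 and FOXO4 were added after their values were seen. Alternatives were normalization, centring, a dim filter, probe set choice, variance models, the replicate block and leaving out each array. Promoters come from RefSeq (GRCh38.p14).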

Additional observations from a re-analysis of the deposited data

Results flagged for a closer look

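The knockdown difference passed the limma threshold for a difference between the lines (Huh7 minus Hep-3B) in 7 of the genes named. Of all genes 1.26% did. Many of the genes were named because a knockdown difference was large, so nothing is read from that count. Over all genes, fewest passed this test when any single control array was left out. PCK1 differed by 1.51 (limma adjusted p = 0.00838), with -0.27 in Hep-3B and 1.24 in Huh7. PC, the carboxylase upstream of it, differed by 0.95 (limma adjusted p = 0.0284), with -0.03 and 0.92. KRT19, a biliary keratin, differed by 1.14 (limma adjusted p = 0.0476), with 0.18 and 1.32. Lower in Huh7 than in Hep-3B were the differences of PIK3R3 (-1.51, limma adjusted p = 0.0340), MTTP (-1.47, limma adjusted p = 0.0167), GPD1 (-1.33, limma adjusted p = 0.0307) and SLC25A13 (-0.80, limma adjusted p = 0.0396).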

How the results depend on the processing

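Without one array at a time, the number of the 10 genes called ranged from 0 to 4 in Hep-3B knockdown, 2 to 6 in Huh7 knockdown, 0 to 2 for the line difference and 5 to 8 between controls; the counts over all genes ranged from 0 to 1135, 545 to 3032, 4 to 521 and 4502 to 7047. In Hep-3B 1 of the 10 was called with a dim filter, 1 with trend and robust eBayes and 2 with array weights; over all genes, where 137 were called, these gave 667, 850 and 671, all probe sets 624 and Hep-3B alone 0. In Huh7 3 of the 10 were called with trend and robust eBayes; over all genes, where 2666 were called, all probe sets gave 4362 and Huh7 alone 1578. For the line difference, where 249 genes were called, the dim filter gave 436 (and 0 of the 10, since PCK1 is dim), all probe sets 540, trend and robust eBayes 560 and the replicate block 143; between controls all probe sets gave 12168, against 6457.

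The replicate numbers did not pair the arrays (correlations of replicate deviations between groups -0.0909 to 0.0889). With the replicate block 4 of the 10 genes were called in Huh7, TXNIP being lost (limma adjusted p = 0.0561). The Hep-3B difference of G6PC1 reversed to 0.15 with the mean of its probe sets. Leaving out single arrays gave ranges that cross 0 for G6PC1 (-0.093 to 0.019) and IRS2 (-0.16 to 0.11) in Hep-3B, for FBP1 (-0.073 to 0.46) and IRS2 (-0.069 to 0.14) in Huh7, and, for the line difference, for FBP1 (-0.52 to 0.021), IGFBP1 (-0.59 to 1.87), IRS2 (-0.076 to 0.20), KLF9 (-0.27 to 0.60), TSC22D3 (-1.21 to 0.41) and TXNIP (-0.62 to 0.78). The cause of these shifts was not tested.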
